A study of Mus musculus with 15 samples.

Results

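The cytosolic ribosomal protein genes encode the protein subunits of the ribosomes that translate mRNA in the cytoplasm. They were taken as the protein-coding genes whose symbol has the form Rpl, Rps or Rplp followed by a number, allowing the copies that end in a, x, l or y, which gave 83 of the 53700 genes in the deposited tables. Of these, 49 belong to the large subunit, 31 to the small subunit and 3, Rplp0, Rplp1 and Rplp2, form the stalk of the large subunit. A further 6 symbols of this form were not annotated as protein-coding and stayed out, Rps4l among them. Rpsa, Fau and Rack1, which also encode ribosomal proteins but carry other symbols, are described apart from the 83.

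Each of 15 libraries held the polyadenylated RNA of 15 mouse oocytes, collected at the germinal vesicle (GV) stage, when the grown oocyte is still arrested in meiotic prophase. Oocytes of the Padi6 line (strain FVB/N) came from Padi6 heterozygotes (het, n = 3) and Padi6 knockouts (KO, n = 3). Oocytes of the Tle6 line (strain C57BL/6J) came from Tle6 heterozygotes (n = 2) and Tle6 knockouts (n = 4), and both hets and KO replicate 4 of that line had technical libraries A and B, summed here. All controls were heterozygotes, so each carried 1 disrupted copy of the gene, while the sources used here do not give how the alleles were made, how old the animals were or how many animals gave each pool. The p-values therefore measure the spread between these pools of oocytes.

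A ribosome holds 1 copy of nearly every ribosomal protein. Most of their mRNAs begin with a run of pyrimidines, the 5′ terminal oligopyrimidine (TOP) tract, through which the mTOR kinase and the RNA-binding protein LARP1 adjust their translation together. A growing oocyte makes ribosomes in large numbers and stores them for the embryo, and transcription falls to a very low level by the end of growth, so that the mRNAs measured here are mostly stored ones. The cytoplasmic lattices, fibres of the oocyte cytoplasm that have long been discussed as a store of ribosomal material, need both PADI6, from the family of enzymes that turn arginine into citrulline, and TLE6, which belongs to the subcortical maternal complex. The comparisons ask whether the mRNAs of the ribosomal proteins differ in oocytes without either gene.

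The start-site sequences are shown because the TOP tract is the feature by which these mRNAs are usually recognised. Start sites were found in RefSeq (build GRCm38.p6) for 63 of the 83 genes, with 75 annotated starts. Each sequence gives the 30 bases from 10 before the annotated start to 20 after it, 5′ to 3′ on the gene's own strand, with the longest run of C and T in capitals. Of the 18 members whose level differed between the lines' hets, 13 had a start site, and the first 8 genes shown are those with a run of 8 or more bases at a start: Rpl34, Rpl35a, Rps15a and Rps12 were higher in Tle6 het than in Padi6 het oocytes, and Rpl27a, Rpl18, Rps9 and Rps27 were lower. The longest run of the other 5 was 3 to 7 bases, and for Rpl34 and Rpl35a, which have several starts, the one with the longest run is shown. The last 4 had the smallest adjusted p in the Tle6 knockout comparison (Rps3) or in the Padi6 knockout comparison (Rps3a1), or stood among the highest levels per length (Rpl27 and Rps4x).
Rpl34, chr3:130730318-130730347, minus strand: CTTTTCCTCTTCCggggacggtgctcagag
Rpl35a, chr16:33056472-33056501, plus strand: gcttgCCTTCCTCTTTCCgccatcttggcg
Rps15a, chr7:118116128-118116157, minus strand: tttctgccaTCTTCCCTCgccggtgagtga
Rps12, chr10:23787190-23787219, minus strand: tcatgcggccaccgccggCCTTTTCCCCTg
Rpl27a, chr7:109519185-109519214, plus strand: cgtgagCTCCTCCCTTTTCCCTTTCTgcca
Rpl18, chr7:45718061-45718090, plus strand: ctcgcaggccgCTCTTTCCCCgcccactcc
Rps9, chr7:3704031-3704060, plus strand: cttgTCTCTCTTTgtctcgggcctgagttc
Rps27, chr3:90213629-90213658, minus strand: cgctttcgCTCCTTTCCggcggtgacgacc
Rps3, chr7:99483690-99483719, minus strand: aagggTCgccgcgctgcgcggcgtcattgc
Rps3a1, chr3:86142649-86142678, minus strand: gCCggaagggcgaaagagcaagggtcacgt
Rpl27, chr11:101442235-101442264, plus strand: ctgTTCCTgtctgctgctcgtgctgctaat
Rps4x, chrX:102189372-102189401, minus strand: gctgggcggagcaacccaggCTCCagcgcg

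Over the 75 starts the median longest run in the 30-base window was 6 bases, against 4 over 32851 RefSeq promoters of the same kind, and a run of 8 or more bases was present in 24 starts (32.0%, against 11.242% of all promoters). Within the 300 bases from 250 before to 50 after the start, searched on both strands, the letters CCGGAAG, which ETS-family factors can bind, were present in 34.667% of the members' promoters and 8.858% of all promoters. AAGATGGC, the core letters of YY1 sites, was present in 10.667% and 2.749%, CTTTCC in 49.333% and 26.559%, and TATAAA in 9.333% and 13.616%. CTTTCC can lie inside a pyrimidine run, so it and the runs overlap. These matches describe annotated sequence, and the start sites used in oocytes were not measured.

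The depth was 30100177 to 74947533 gene counts in a library. Padi6 stood at 1617 to 1747 counts-per-million (CPM) in Padi6 het and at 18.2 to 25.1 CPM in Padi6 KO, and Tle6 at 425 and 457 CPM in Tle6 het and at 61.1 to 98.8 CPM in Tle6 KO, so both target transcripts were low in the libraries labelled knockout. Transcripts of 15 oocyte genes summed to 22779 to 29285 CPM in the 12 replicates, those of 19 granulosa and cumulus genes to 103 to 134 CPM, those of 8 theca and stroma genes to 1.93 to 5.56 CPM and those of 8 blood and immune genes to 0.669 to 2.33 CPM. Spike-in transcripts had 4009 to 13772 counts in 5 libraries and 5 to 45 in the other 10, and gave no common scale, so the amount of RNA per oocyte cannot be read from these values. All levels are relative to the other genes of the same library, and in such pools fewer cells of a type and less RNA per cell cannot be told apart.

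Ribosomal protein genes took under 1% of all gene counts in every replicate. Their share was 0.833, 0.746 and 0.778% in Padi6 het replicates 1, 2 and 3 (0.786% ± 0.0441, SD, n = 3) and 0.885, 0.850 and 0.780% in Padi6 KO (0.838% ± 0.0537, n = 3), with overlapping values. It was 0.719 and 0.688% in the Tle6 het replicates (0.704% ± 0.0219, n = 2) and 0.792, 0.891, 0.811 and 0.929% in Tle6 KO replicates 1 to 4 (0.856% ± 0.0648, n = 4). All 4 Tle6 KO values lay above the pair of het values, but libraries A and B of het replicate 2 gave 0.789 and 0.633%, and library A by itself came within 0.01 percentage points of KO replicate 1. No p is given for this summed share. Large subunit and stalk genes together had 1.25 ± 0.0315 times the counts of small subunit genes in Padi6 het, 1.21 ± 0.0457 times in Padi6 KO, 1.11 ± 0.0543 times in Tle6 het and 1.16 ± 0.0471 times in Tle6 KO. For comparison, 78 mitochondrial ribosomal protein genes, which serve the ribosomes inside mitochondria, took 0.353 to 0.397% of counts as group means.

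**Figure D1:**
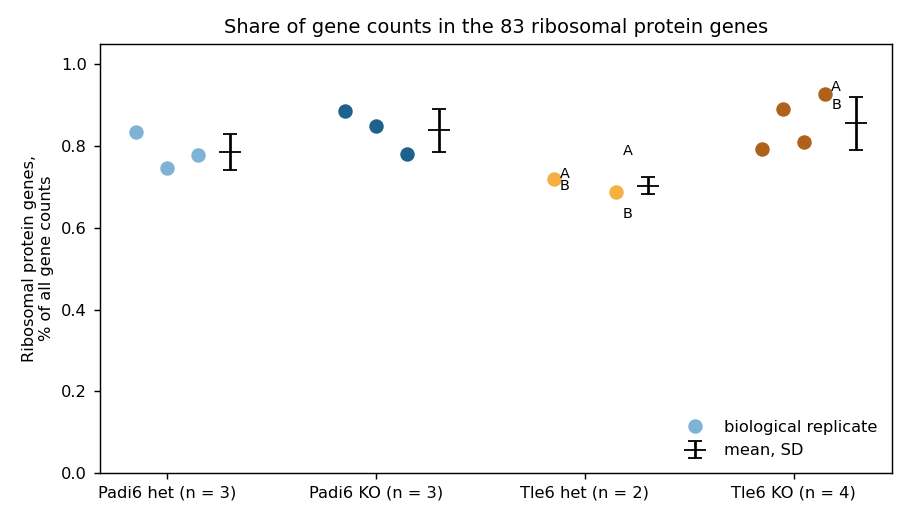
Share of all gene counts, in percent, that fell in the 83 ribosomal protein genes (vertical axis, from 0) for each biological replicate of the 4 groups; points are replicates, bars with caps are the mean and SD, and the letters A and B mark the technical libraries where a replicate had both. The letters lie together for Tle6 het replicate 1 and apart for Tle6 het replicate 2, at 0.789 and 0.633%.

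The members' levels spanned more than 3 orders of magnitude. On TMM-scaled CPM, 71 of the 83 stood at 10 CPM or more in all 12 replicates, 25 had a mean of at least 100 CPM, and the median member stood at 52.7 CPM. The 5 highest members held 32.4% of the summed CPM and 12 members held 50% of it. Rps15a, a small subunit protein, was the highest by CPM as the mean of the 4 groups, although Rpl4 had the higher mean in Padi6 het (542 against 531 CPM). Rps15a stood at 483 to 584 in Padi6 het, 554 to 720 in Padi6 KO, 1161 and 1198 in Tle6 het and 933 to 1187 in Tle6 KO.

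Levels can be compared between genes only per length, here the length of the principal annotated protein-coding transcript (GENCODE M21). On that scale the highest was Rpl27, a large subunit protein, at 725 CPM per kb as the mean of the 4 groups. The order rests on the transcript model: with the shortest annotated model of each gene, Rps15a came first at 3449 CPM per kb, Rpl27 next at 1456, and Rps12 (365) and Rpl10 (353) passed Rps15 and Rpl4. Rps4x, the X-linked copy of a small subunit protein that contacts the ribosomal RNA, stood at 551 CPM per kb, and Rpl26, whose protein can also bind the p53 mRNA, at 442 CPM per kb. Rps15, a protein of the small subunit head, followed at 324 CPM per kb and Rpl4, which lines the exit tunnel for the new peptide, at 320 CPM per kb. Rps15a stood at 167 CPM per kb with its principal transcript model of 5179 bases, against 250 bases in its shortest. Over the 12 replicates Rpl27 ranged from 435 to 1291 CPM per kb and Rps4x from 453 to 659, so these neighbours in the order overlapped, and so did Rpl26 (320 to 656), Rps15 (174 to 474) and Rpl4 (230 to 444). The order of the members was nearly the same in all groups, with a Spearman correlation over the 83 genes of 0.996 between Padi6 het and KO, 0.975 between Tle6 het and KO and 0.954 to 0.962 across the lines, where the points share the gene's length and sequence.

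Ribosomal protein genes have many processed copies in the genome, and 289 annotated pseudogenes were named after 59 of the members. Reads with several alignments, 12.09 to 14.51% of all reads, were not counted for any gene. Of the 75-base windows of each member's transcript, a median of 54.1% occurred in no other annotated gene, and 18 members had fewer than 25% of such windows, so their counts are uncertain. Across members the level per kb had a Spearman correlation of 0.029 with the share of unique windows. Exons of other genes overlap 18 members, 8 of them over more than 50% of the transcript, and 4 of these 18 are also among those with few unique windows. Reads that fell in 2 genes were left out, and no source used here says whether the counting used strand.

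**Figure D2:**
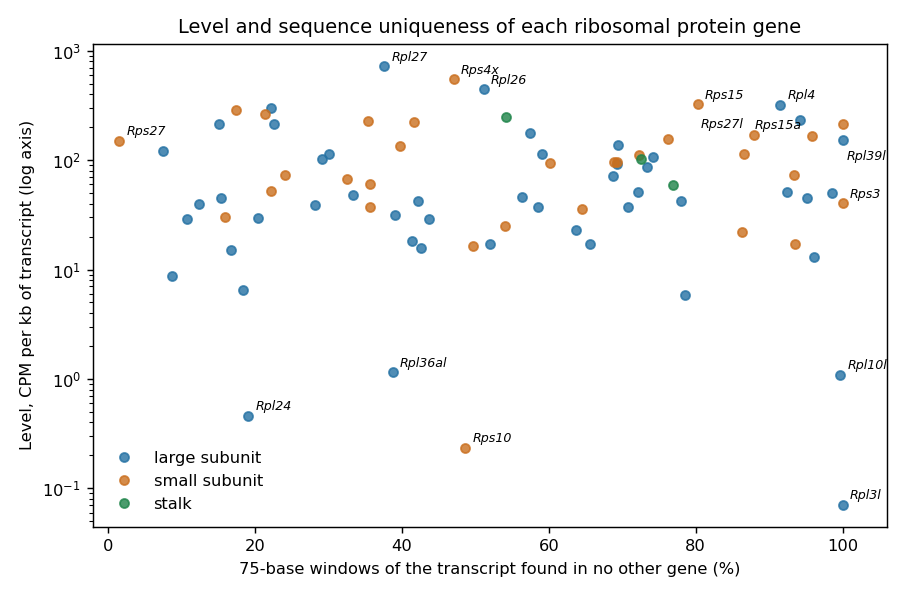
Level of each of the 83 genes in CPM per kb of transcript (mean of the 4 groups, log axis) against the percentage of its 75-base windows found in no other annotated gene; colours mark large subunit, small subunit and stalk. Rpl27, Rps4x and Rpl26 lie at the top, and Rpl3l, Rps10 and Rpl24 at the bottom with very different uniqueness.

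The lowest members fall into 2 kinds. Rpl24 and Rps10, subunits that ribosomes generally carry, stayed below 1 CPM in every replicate, and exons of other genes overlap 71.5% of the Rpl24 transcript and 63.6% of the Rps10 transcript. Rps10 had 45, 42, 18 and 61 counts in all over the Padi6 het, Padi6 KO, Tle6 het and Tle6 KO replicates. Rpl3l, a paralog of Rpl3 known from heart and skeletal muscle, has 100% unique windows and was the other member below 1 CPM in every replicate. Rpl36al was below 1 CPM in all 4 group means but not in every replicate, and exons of another gene overlap 63.1% of its transcript. Rpl3l had 9, 7 and 0 counts in Padi6 het and 25, 22 and 8 in Padi6 KO. It had 0 and 1 in Tle6 het and 0 in each of the 4 Tle6 KO replicates. Rpl3l passed the filter on low counts in the joint fit of the 12 replicates only, and no fold is given at these counts. Rpl10l, a copy of the X-linked Rpl10 known from male meiosis, had 202, 279, 175 and 236 counts in the 4 groups, or 0.888 to 1.46 CPM.

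In Padi6 KO oocytes no ribosomal protein gene passed the test against Padi6 het oocytes. Most members differed by little: 54 of the 82 tested had a positive log2 fold change and 28 a negative one, with a median of 0.05, a lowest value of -0.84 for Rpl36al and a highest of 0.44 for Rpl27. In edgeR's quasi-likelihood test with Benjamini-Hochberg adjustment over all genes, 0 members were higher and 0 lower, where 2.41% of the 18228 genes tested passed (1.69% higher and 0.724% lower). An unadjusted p under 0.05 was found for 4 members (4.88%) and for 18.6% of all genes. The median over all genes was -0.01 and 49.2% of all genes had a positive value, against 65.9% of the members. The 95% interval of the fold change lay within 2-fold either way for 78 of the 82 members, and for 64.0% of all genes. The exceptions were Rpl24, Rpl36al, Rps10 and Rpl9, whose mean levels were below 8 CPM in both groups of this line.

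Rpl27, Rps3a1 and Rpl34 came nearest to the threshold, all with higher values in Padi6 KO. Rps3a1, a small subunit protein at the side where mRNA leaves, stood at 123, 130 and 130 CPM in het and at 171, 156 and 151 CPM in KO replicates 1, 2 and 3. The groups did not overlap, and the log2 fold change was 0.34 ± 0.09 (SE, edgeR adjusted p = 0.0803). Rpl27 stood at 267, 285 and 316 CPM in het and at 339, 396 and 424 CPM in KO, again without overlap, with a log2 fold change of 0.44 ± 0.12 (adjusted p = 0.0851). Rpl34, a large subunit protein, stood at 57.2, 57.0 and 52.0 CPM in het and at 66.5, 74.5 and 69.9 CPM in KO (0.36 ± 0.10, adjusted p = 0.101). DESeq2 called all 3 higher (adjusted p = 0.0201 for Rpl27, 0.0173 for Rps3a1 and 0.0326 for Rpl34), and limma-voom called 0. Over all genes DESeq2 called 1336 and limma-voom 369.

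In 8 members (9.76%) every KO value lay above every het value, against 10.8% of all genes, and these were Rpl13a, Rpl14, Rpl27, Rpl34, Rplp2, Rps25, Rps3a1 and Rps4x. In 1 member (1.22%) every KO value lay below every het value, against 12.5% of all genes. That member was Rps24, a small subunit gene mutated in Diamond-Blackfan anaemia, at 42.0, 37.5 and 38.5 CPM in het and 34.9, 36.6 and 30.4 CPM in KO (log2 fold change -0.20 ± 0.11, adjusted p = 0.374). Rpl36al, an intronless copy of Rpl36a, had the lowest fold change, but at 0.535 to 0.795 CPM in het and 0.248 to 0.538 CPM in KO its interval ran from -1.77 to 0.09. Rpl9 stood at 3.26, 12.2 and 6.83 CPM in het and at 4.99, 5.41 and 3.54 CPM in KO, so het replicate 2 alone stood above all KO values by more than 2-fold.

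**Figure D3:**
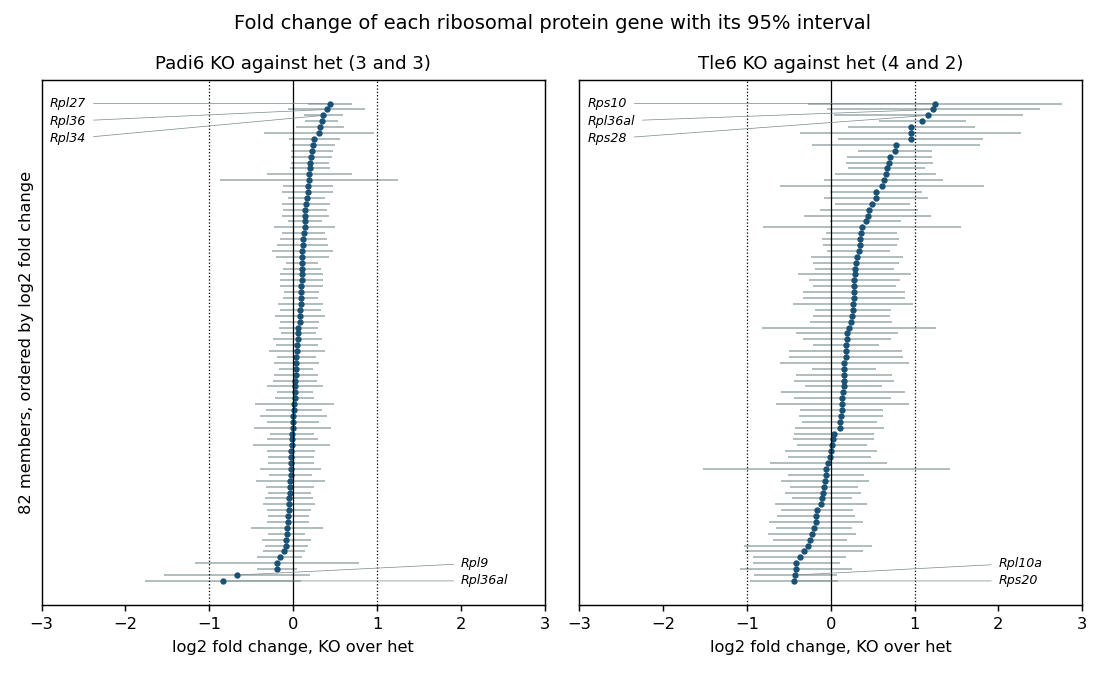
Log2 fold change of KO over het (horizontal axis) with its 95% interval for the 82 ribosomal protein genes tested in each line, ordered by value; the dotted lines mark a 2-fold change either way. In the Padi6 line 78 intervals lie within the dotted lines and in the Tle6 line 57.

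In Tle6 KO oocytes no ribosomal protein gene passed the test either, and more of them had positive values. Of 82 members tested, 60 (73.2%) had a positive log2 fold change and 22 a negative one, against 54.1% positive over all genes, and the median was 0.19, against 0.06 over all genes. With edgeR and Benjamini-Hochberg adjustment 0 members were higher and 0 lower, where 1.62% of 20276 genes passed (0.587% higher and 1.04% lower), and 10 members (12.2%) had an unadjusted p under 0.05, against 19.0% of all genes. DESeq2 called 2 members higher, Rps3 and Rps18, and limma-voom called 0. Over all genes DESeq2 called 1732 and limma-voom 354. The intervals were wider than in the Padi6 line, and 57 of 82 lay within 2-fold either way. In 18 members (22.0%) every KO value lay above both het values, against 13.3% of all genes, and in 3 members (3.66%), Rpl5, Rpl23a and Rpl32, every KO value lay below them, against 16.0%.

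These Tle6 values rest partly on 1 library. Without library B of het replicate 2 the members' median was 0.05 and the median of all genes 0.01, 48 of the 82 members had a positive value, and again 0 members passed in either direction. With total counts in place of TMM scaling the members' median was 0.34 and that of all genes 0.22, a shift that the scaling gave to all genes.

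Rps3, which lines the channel through which mRNA enters the small subunit, had the smallest adjusted p in the Tle6 line. It stood at 52.1 and 48.6 CPM in het and at 101, 120, 119 and 77.3 CPM in KO replicates 1 to 4, above both het values in 4 of 4. Its log2 fold change was 1.09 ± 0.23 (SE, edgeR adjusted p = 0.0557), and all of its 75-base windows are unique. In libraries A and B of het replicate 2 it stood at 71.9 and 25.1 CPM, and without library B the log2 fold change was 0.77 ± 0.26 (adjusted p = 0.254). DESeq2 (adjusted p = 0.00152), the fit with no filter on low counts (0.00224), a minimum mean of 5 CPM (0.0483), total count scaling (0.0492) and a spread shared by both lines (0.00706) called it higher.

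Rps18, a protein of the small subunit head, stood at 24.3 and 23.9 CPM in Tle6 het and at 33.6, 44.6, 39.4 and 41.3 CPM in Tle6 KO, with no overlap (log2 fold change 0.76 ± 0.19, edgeR adjusted p = 0.0907). Rpl6 stood at 35.4 and 46.1 CPM in het and at 57.8, 69.5, 56.6 and 68.1 CPM in KO (0.67 ± 0.20, adjusted p = 0.132). Rps2, which neighbours Rps3 at the mRNA entry, stood at 43.0 and 49.7 CPM in het and at 64.7, 73.1, 61.5 and 95.1 CPM in KO (0.70 ± 0.22, adjusted p = 0.145). Rps18 has 22.2% unique windows, so its counts are uncertain. Rps18, Rpl6 and Rps2 were all higher in every KO replicate than in both hets. Without library B of het replicate 2 their log2 fold changes were 0.47 for Rps18, 0.47 for Rpl6 and 0.16 for Rps2.

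Rpl3, which reaches towards the peptidyl transferase centre, stood at 12.5 and 17.8 CPM in Tle6 het and at 22.8, 25.9, 21.5 and 26.0 CPM in Tle6 KO (log2 fold change 0.70 ± 0.23, edgeR adjusted p = 0.156). Rpl23, a large subunit protein at the subunit interface that can also bind MDM2, stood at 24.5 and 56.1 CPM in het and at 62.8, 94.96, 78.8 and 69.6 CPM in KO (0.96 ± 0.33, adjusted p = 0.172). Rpl3 has 16.8% unique windows, so its counts are uncertain. In het replicate 2 the libraries disagreed on Rpl23, with 108 CPM in A and 15.3 CPM in B. Without library A the log2 fold change was 1.80 ± 0.24 (adjusted p = 0.0115), and without library B it was 0.23 ± 0.49 (adjusted p = 0.885), so the call depended on which library was kept.

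The lowest fold changes of the Tle6 line were small. Rps20, in the head of the small subunit, stood at 61.3 and 84.4 CPM in het and at 55.0, 46.6, 42.8 and 65.3 CPM in KO (log2 fold change -0.44 ± 0.23, edgeR adjusted p = 0.341). Rpl10a stood at 42.9 and 32.3 CPM in het and at 26.6, 25.6, 23.2 and 33.5 CPM in KO (-0.43 ± 0.22, adjusted p = 0.328). Rpl23a, near the opening of the exit tunnel, stood at 5.54 and 5.79 CPM in het and at 4.44, 2.90, 4.02 and 5.15 CPM in KO (-0.42 ± 0.30, adjusted p = 0.486). Without library B of het replicate 2 the values were -0.46 for Rps20, -0.60 for Rpl10a and 0.02 for Rpl23a. The highest fold changes belonged to low or variable members: 1.25 for Rps10, which stood at 0.101 CPM in both hets and 0.142 to 0.326 CPM in KO, 1.22 for Rpl36al and 1.16 for Rps28. These were 0.83, 0.94 and 0.97 without that library.

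Tle6 KO replicates did not stand together. The coefficient of variation was taken over members with a group mean of at least 5 CPM, 76 in Padi6 KO and 77 in each other group. Its median was 11.1% in Padi6 het, 11.8% in Padi6 KO, 14.5% in Tle6 het and 19.6% in Tle6 KO. The Tle6 het value rests on 2 replicates. Rps28, a small subunit protein, had 25.9 and 27.2 CPM in KO replicates 2 and 3 but only 8.92 and 9.98 CPM in KO replicates 1 and 4, while the hets stood at 7.06 and 9.42 CPM. Rpl36 had 57.0 and 104 CPM in that higher pair and 21.7 and 29.8 CPM in the other, and Rpl22l1, a paralog of Rpl22, had 28.0 and 22.0 CPM against 8.78 and 7.27 CPM. Other members were lower in replicates 2 and 3. Rpl7a had 113 and 116 CPM there, against 224 and 250.3 CPM in replicates 1 and 4. Rps19, the gene most often mutated in Diamond-Blackfan anaemia, had 46.4 and 40.99 CPM against 78.8 and 97.1 CPM. The members in this paragraph were chosen for their spread after their values were seen. Granulosa and cumulus transcripts summed to 126 and 123 CPM in replicates 2 and 3 and to 108 and 112 CPM in replicates 1 and 4. Transcripts of the mitochondrial genome took 0.475 and 0.461% of gene counts in replicates 2 and 3, against 0.225% in replicate 1 and 0.258 and 0.272% in the libraries of replicate 4. Reads outside annotated genes were 6.70 and 7.29% of all reads in replicates 2 and 3, against 5.65 to 5.84% in the libraries of replicates 1 and 4, and reads with several alignments were 14.5% in both, against 12.1 to 13.5%. The part of these in the split was not tested.

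**Figure D4:**
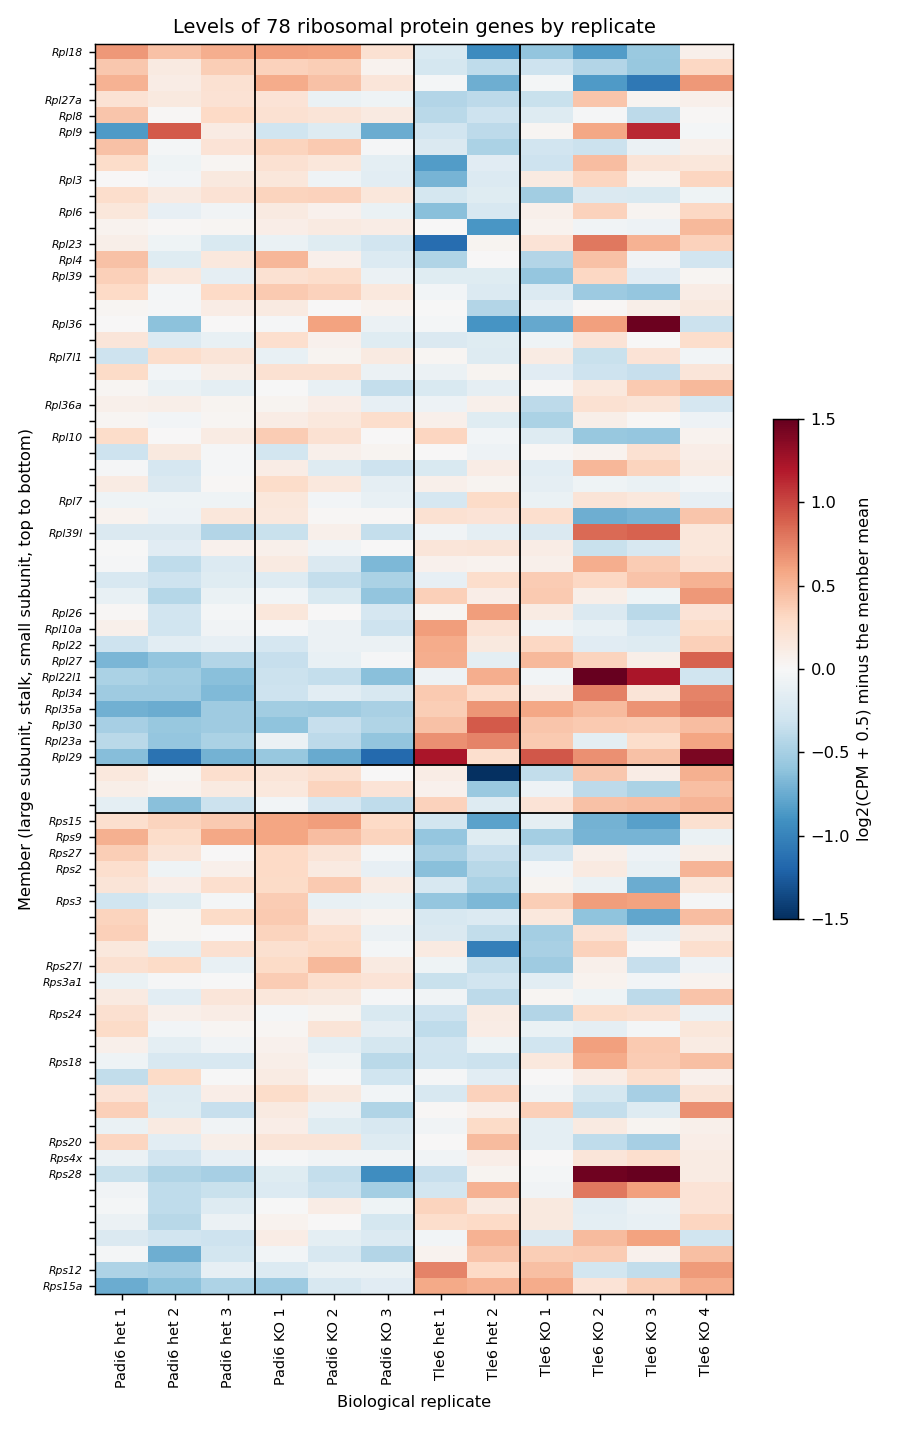
Level of each of the 78 ribosomal protein genes with a mean of at least 2 CPM (rows, ordered within large subunit, stalk and small subunit) in the 12 biological replicates (columns), as log2(CPM + 0.5) minus the gene's mean, with the colour scale ending at 1.5 either way and names beside the rows of members chosen for naming. Tle6 KO replicates 2 and 3 share their strongest colours, for example for Rps28 (25.9 and 27.2 CPM) and Rpl22l1 (28.0 and 22.0 CPM).

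The technical libraries show how far 2 libraries of the same replicate can lie apart. Over the 83 members, log levels in libraries A and B correlated at r = 0.999 for Tle6 het replicate 1 and for KO replicate 4, with 0 members differing by more than 2-fold. For het replicate 2 the correlation was 0.932 and 35 members differed by more than 2-fold, mostly with the higher value in library A (median log2 ratio of A to B 0.85). Granulosa and cumulus transcripts summed to 138 CPM in A but 101 CPM in B, and transcripts of the mitochondrial genome took 0.353 and 0.185% of gene counts. The labels call both libraries of 1 replicate, and whether both hold the same oocytes' RNA was not tested, so every Tle6 het mean carries this limit. Rpl23 was 6.88 times as high in library A, while Rpl27 went the other way, with 140 CPM in A and 435 CPM in B. Correlations here are over genes of 1 replicate and describe these libraries.

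**Figure D5:**
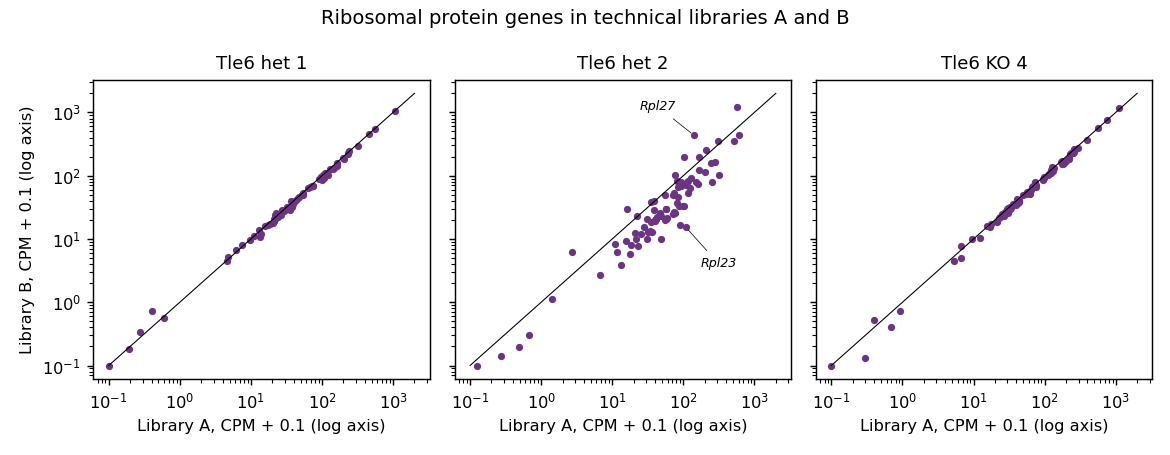
Level of the 83 ribosomal protein genes in technical library A (horizontal, CPM + 0.1, log axis) and library B (vertical, CPM + 0.1, log axis) of the 3 Tle6-line replicates that had both, with the line of equal levels. Points follow the line for het replicate 1 and KO replicate 4 and scatter for het replicate 2, where Rpl23 lies below it and Rpl27 above it.

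The difference between the knockout effects of the 2 lines was tested in 1 fit over the 12 replicates. No member passed: 0 were higher and 0 lower in edgeR's interaction contrast (Tle6 effect minus Padi6 effect), where 4.32% of 21392 genes passed (1.31% higher and 3.01% lower), and 10 of 83 members had an unadjusted p under 0.05, against 20.7% of all genes. DESeq2 called Rpl3 and Rps18 with the more positive effect in the Tle6 line, and limma-voom called 0 members. The same fits called 1997 and 866 of all genes. The smallest adjusted p was 0.115, for Rps3, whose effect was more positive in the Tle6 line by 0.79 ± 0.27 on the log2 scale (0.52 without library B of Tle6 het replicate 2). For Rpl36al the difference was 2.01 ± 0.70 (adjusted p = 0.122) and for Rpl9 it was 1.56 ± 0.61 (adjusted p = 0.161), both members of low level. The median difference was 0.13 over members and 0.02 over all genes, and it was -0.02 over members without that library.

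More members passed between the lines' hets than between genotypes within a line. The fits were unlike: this one used all 12 replicates, and each knockout comparison those of its own line. With spread shared by both lines, 6 members passed in Tle6 KO, among 2061 genes. In Tle6 het against Padi6 het oocytes 11 members were higher and 7 lower (edgeR, Benjamini-Hochberg adjusted p under 0.05), which is 21.7% of 83 members, against 28.5% of all 21392 genes (15.9% higher and 12.7% lower). The median log2 fold change was -0.11 over members and -0.03 over all genes. Strain, targeted gene and any difference in handling between the lines cannot be told apart in this comparison, and the hets are the same libraries as in the knockout comparisons.

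Rpl29, Rpl23a, Rpl30, Rpl35a and Rps15a had the largest positive differences, more than 2-fold. Rpl29, a small basic protein of the large subunit, stood at 5.98, 4.21 and 5.71 CPM in Padi6 het and at 23.2 and 11.6 CPM in Tle6 het, with no overlap (log2 fold change 1.73 ± 0.33 SE, edgeR adjusted p = 0.00162). Padi6 KO replicates had 4.01 to 6.35 CPM of it and Tle6 KO replicates 13.2 to 26.4 CPM. Rpl30, a large subunit protein, stood at 22.1, 20.96 and 21.5 CPM in Padi6 het and at 42.8 and 59.8 CPM in Tle6 het (1.28 ± 0.17, adjusted p = 0.000115), and the 4 Tle6 KO values lay between 41.2 and 43.6 CPM. Rpl35a, mutated in some patients with Diamond-Blackfan anaemia, stood at 10.6, 10.4 and 12.2 CPM in Padi6 het and at 23.1 and 28.4 CPM in Tle6 het (1.24 ± 0.17, adjusted p = 0.000151). Exons of another gene overlap 57.5% of the Rpl30 transcript, and 28.2% of its windows are unique, so its counts are uncertain.

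Rps15a stood at 483, 527 and 584 CPM in Padi6 het and at 1198 and 1161 CPM in Tle6 het (log2 fold change 1.17 ± 0.16, edgeR adjusted p = 0.000183). Rpl34 stood at 57.2, 57.0 and 52.0 CPM and at 109 and 99.2 CPM (0.93 ± 0.19, adjusted p = 0.00255). Among the other higher members were Rpl23a (1.40), Rps12 (0.91), Rpl27 (0.83), Rpl22 (0.59) and Rpl10a (0.55). Rps12 has 17.4% unique windows, Rpl23a 18.3% and Rpl10a 12.4%, so these 3 are uncertain.

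Rpl18 and Rps9 led the lower members. Rpl18, a large subunit protein, stood at 25.9, 22.2 and 24.0 CPM in Padi6 het and at 13.9 and 8.25 CPM in Tle6 het (log2 fold change -1.10 ± 0.28, edgeR adjusted p = 0.0102), and at 8.90 to 17.2 CPM in Tle6 KO. Rps9, which binds early in the assembly of the small subunit, stood at 115, 95.5 and 118 CPM and at 52.6 and 69.4 CPM (-0.82 ± 0.20, adjusted p = 0.00874). The other lower members were Rps15 (-0.82), Rpl27a (-0.60), Rps27 (-0.60), Rpl8 (-0.60) and Rps2 (-0.60). Only 1.48% of the Rps27 windows are unique.

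The calls between the lines depended on the libraries used. Without library B of Tle6 het replicate 2, 6 members were higher and 1 lower, 6 of these 7 shared with the 18, and the median was 0.03. That is 8.43% of members, against 17.5% of all genes in that fit. Rps15a then had a log2 fold change of 0.75 (edgeR adjusted p = 0.0594) and Rps9 of -0.69 (adjusted p = 0.0513), while Rpl18 kept its call at -0.83 (adjusted p = 0.0356). Rpl29, Rpl30, Rpl34 and Rpl35a kept their call in each of 23 alternative analyses, whereas Rpl10a lost it in 12 and Rpl27a in 10. Some of the 23 left out only a KO replicate. Such a replicate enters this comparison through the scaling and the estimate of spread, but not through the het levels. With total counts in place of TMM scaling 6 members were higher and 21 lower (32.5% of members, against 30.6% of all genes), while the median of all genes moved to -0.34, so that the split of the calls between higher and lower depends on the scaling.

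Several ribosomal proteins have a second gene whose protein can take the same place in the ribosome. On the scale of CPM per kb, Rpl39l, known from testis, exceeded Rpl39, which lines the exit tunnel. Rpl39l made up 68.8% ± 2.05 of the sum of the pair in Padi6 het, 70.0% ± 2.99 in Padi6 KO, 75.9% ± 0.983 in Tle6 het and 80.8% ± 4.00 in Tle6 KO (SD, n = 3, 3, 2 and 4). Both genes are largely unique in sequence (100% and 92.4% of windows). Rpl39l stood at 117 and 109 CPM in Tle6 het and at 104, 219, 226 and 137 CPM in Tle6 KO, so KO replicate 1 lay below both hets (log2 fold change 0.63 ± 0.31, edgeR adjusted p = 0.313). KO replicates 2 and 3 held the highest values.

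Rps27l, a p53-inducible copy of Rps27, made up 51.6% ± 2.19, 55.1% ± 2.69, 56.2% ± 5.23 and 49.5% ± 2.07 of its pair in Padi6 het, Padi6 KO, Tle6 het and Tle6 KO, but the low uniqueness of Rps27 makes these shares uncertain. Rpl22l1 made up 20.8% ± 1.99, 21.5% ± 2.85, 24.7% ± 9.44 and 35.3% ± 18.7 of its sum with Rpl22, and the spread in Tle6 KO follows the split between its replicates described above. Rpl7l1 made up 9.93 to 11.2% of its pair with Rpl7 in the 4 groups. Rpl3l, Rpl10l and Rpl36al made up under 4% of theirs. Their partners Rpl3, Rpl10 and Rpl36a have 16.8, 15.1 and 15.4% unique windows, and exons of another gene overlap 63.1% of the Rpl36al transcript. The shares of these pairs are therefore uncertain too. All paralog shares rest on the transcript models. With the shortest models, as group means, Rpl7l1 made up 30.8 to 33.9%, Rpl22l1 6.00 to 13.0%, Rpl39l 76.3 to 86.0% and Rps27l 63.3 to 69.2%.

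Rack1, Rpsa and Fau passed in none of the 4 comparisons with edgeR. Rack1, a scaffold protein on the small subunit head, stood at 179, 143 and 174 CPM in Padi6 het, 205, 196 and 171 in Padi6 KO, 129 and 112 in Tle6 het and 120, 89.6, 75.7 and 128 in Tle6 KO. Rpsa, a laminin receptor as well as a small subunit protein, had 53.1 to 68.2 CPM in Padi6-line oocytes and 20.8 to 51.7 CPM in Tle6-line oocytes, and Fau, a ubiquitin-like fusion, 43.9 to 54.0 and 17.4 to 56.6 CPM. For Rack1, Rpsa and Fau, Tle6 KO replicates 2 and 3 were below replicates 1 and 4, as for Rps19.

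Genes that build ribosomes or control TOP mRNAs had few calls in the knockouts. The shares over all genes were also low, 2.41% in Padi6 KO and 1.62% in Tle6 KO. At those shares, lists of this size would hold few calls. Of 71 ribosome biogenesis genes, 1 fell in Padi6 KO (1.41%) and 70 did not pass, while 0 passed in Tle6 KO with edgeR. The fallen gene was Ncl, encoding nucleolin of the nucleolus, at 96.9 ± 4.82 CPM in Padi6 het and 66.5 ± 6.28 CPM in Padi6 KO (SD, n = 3 each; log2 fold change -0.52 ± 0.10, edgeR adjusted p = 0.0261). It missed the threshold whenever 1 of the 6 replicates was left out (adjusted p from 0.0532 to 0.12). Between the lines' hets 11 of the 71 were higher and 14 lower, 35.2% against 28.5% of all genes (4 and 6 without library B of Tle6 het replicate 2), with Brix1, needed for large subunit assembly, at 191 ± 17.5 CPM in Padi6 het and 555 ± 146 CPM in Tle6 het (1.56 ± 0.17, adjusted p = 2.41e-05). The medians of the 71 genes were -0.04 in Padi6 KO, 0.01 in Tle6 KO and -0.20 between the hets. Without library B, 17.5% of all genes passed between the hets.

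Other TOP mRNAs, those of elongation factors and their like, had 0 calls of 13 tested in Padi6 KO and 0 of 14 in Tle6 KO. The shares over all genes were 2.41% and 1.62%, and between the hets without library B 17.5%. Between the hets 3 of 14 were higher and 4 lower, 7 of 14 where 28.5% of all genes passed (1 and 2 without library B), among them Eef2, the translocation factor, at 150 ± 8.17 CPM in Padi6 het and 62.4 ± 7.99 CPM in Tle6 het (log2 fold change -1.25 ± 0.18, edgeR adjusted p = 0.000263). Of 22 genes that control TOP mRNAs, the mTOR pathway and LARP family among them, 0 passed in either knockout, and between the hets 3 were higher and 5 lower, 36.4% against 28.5% of all genes (2 and 5 without library B). The difference between the lines' knockout effects passed for 2 of these (9.09%, against 4.32% of all genes). Larp4 stood at 113 and 141 CPM in Padi6 het and KO but at 170 and 102 CPM in Tle6 het and KO (-1.09 ± 0.25, edgeR adjusted p = 0.0301). Deptor, an inhibitor of mTOR, followed with 113 and 126 CPM against 181 and 120.3 CPM (-0.77 ± 0.18, adjusted p = 0.033). Both calls were lost without library B (adjusted p = 0.114 for Larp4 and 0.0919 for Deptor) and when some of the replicates were left out, 7 of 12 for Larp4 and 9 of 12 for Deptor.

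The mitochondrial ribosomal protein genes gave 0 calls of 76 in Padi6 KO and 1 of 76 (1.32%) in Tle6 KO, against 2.41% and 1.62% of all genes. That gene, Mrpl52, stood at 2.33 ± 0.114 CPM in Tle6 het and 9.99 ± 3.13 CPM in Tle6 KO (log2 fold change 2.14 ± 0.37, edgeR adjusted p = 0.0294). Without library B it was 1.66 ± 0.40 (adjusted p = 0.126), and the call was also lost with 4 of the 6 replicates left out in turn. The difference between the lines' effects on it, 2.83 ± 0.42 (adjusted p = 0.00247), kept its call without library B (adjusted p = 0.017) and without each of the 12 replicates. Between the hets 10 were higher and 12 lower, 28.9% of the 76, against 28.5% of all genes and 21.7% of the cytosolic members. Without library B 4 were higher and 2 lower, where 17.5% of all genes passed.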

How the data were processed

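The values are raw gene counts, 1 table a library, as the authors deposited them, and are whole numbers with no normalisation. Per the submitters' processing notes the tools were bcl2fastq 2.20.0.422, cutadapt 2.8, STAR 2.7.8a and HTSeq 2.0.2 with mm39. Per the labels' protocols, the poly(A) libraries used a QIAseq FX Single Cell kit. No source used here gives the annotation release or strand setting. Symbols came from GENCODE M21 (GRCm38), which matched 52147 of 53700 identifiers. Neither spike-in rows nor summary lines entered library sizes or tests.

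Counts of technical libraries A and B were added. In R 4.3.3, edgeR 4.0.16 tested the genes that filterByExpr kept (two-sided quasi-likelihood test, robust fit, TMM scaling, Benjamini-Hochberg adjustment over all genes tested, threshold 0.05). Each line was fitted by itself, and the comparisons across lines used all 12 replicates. DESeq2 1.42.0 and limma 3.58.1 (voom) were alternatives, with others of scaling, filter and libraries. The scripts were tested on simulated data. CPM use TMM-scaled library sizes, except those of single technical libraries, which use total gene counts. At these depths the spread between replicates, not counting, limits most members.

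Members and lists were chosen with earlier results of these data known. The text names members called in any comparison, the 3 highest and 3 lowest by fold change, the paralog pairs, the 5 highest per length, up to 3 called genes of each list, and members chosen for their spread or closeness to the threshold after their values were seen. Some genes under this rule are not reported here.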

Additional observations from a re-analysis of the deposited data

How the results depend on the processing

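Among the 83 genes, no called value of those named changed direction under the alternatives run. In Padi6 KO, members called higher were 0 in the main analysis, 1 with no filter on low counts (Rpl27), 3 with DESeq2 and 2 with the replicate block (Rpl27 and Rps3a1). Whether the numbers pair the samples was not settled. In the Padi6 line, deviations of same-numbered samples correlated at 0.152, 0.0478 and 0.0933, and those of other numbers at -0.137 to 0.0577. Padi6 het replicate 2 correlated better with another number (0.0577). In the Tle6 line same-numbered samples correlated at 0.0553 and 0.115, and the block left 0 members called. With 2 hets in that line, their deviations mirror each other, so these values cannot decide the pairing. In Tle6 KO, members called higher were 0 in the main analysis, 1 with total count scaling, 2 with no filter, 1 with a mean of at least 5 CPM, 2 with DESeq2, 1 without library A of het replicate 2 and 6 when both lines shared 1 estimate of spread. The median there was 0.34 with total count scaling, 0.0482 without library B of het replicate 2 and 0.0594 with library A only of each doubled replicate. No member was called in either line when a biological replicate was left out, with the Padi6 median from 0.02 to 0.13 and the Tle6 median from 0.13 to 0.26. The difference between lines had 3 members higher with no filter, 2 with DESeq2, 1 without library A and 0 to 1 when a replicate was left out (Rplp1 without Tle6 het replicate 1, Rpl23 without het replicate 2, Rps3 without KO replicate 4). Its median was 0.34 with total count scaling, -0.0246 without library B and -0.0367 with library A only. Between the hets, total count scaling gave 6 higher, 21 lower and a median of -0.42. Lower members were 11 with no filter, 15 with a mean of at least 5 CPM and 11 with DESeq2. All genes called between the hets were 6107 in the main analysis and 6548 with total count scaling. They were 6711 with no filter, 4047 with a mean of at least 5 CPM and 7118 with DESeq2. Without library A there were 14 lower and a median of -0.24. Without library B there were 6 higher, 1 lower and 0.0333, and with library A only 6 higher, 0 lower and 0.0492. All genes called in these fits were 6988, 3724 and 3534. Of 45 members with at least 50% unique windows, an alternative chosen after seeing the data, 5 were higher and 5 lower, with a median of -0.25. That is 22.2% called, against 21.7% of the 83 members and 28.5% of all genes. Leaving out a replicate gave 7 to 12 higher and 2 to 9 lower, the lowest without Padi6 het replicate 2 (7 higher) and Padi6 het replicate 1 (2 lower). All genes called also fell there, to 4802 without Padi6 het replicate 2 and 4726 without Padi6 het replicate 1, from 6107. Also added after seeing the data were the shortest transcript models, the other gene lists without library B and, for Ncl, Mrpl52, Larp4 and Deptor only, leaving out each replicate. The genes of those lists were not run under other scalings, filters or tools. The cause of these changes was not tested. Over all genes, the calls ranged from 60 (shared spread) to 1625 (no filter) in the Padi6 line. They were 440 in the main analysis there, 1336 with DESeq2 and 859 with the block. In the Tle6 line they ranged from 57 (block) to 2061 (shared spread), with 329 in the main analysis and 1732 with DESeq2. They were 1447 with no filter, 302 with total count scaling, 221 with a mean of at least 5 CPM and 316 without library A. The difference between lines had 924 in the main analysis, 2078 with no filter, 1997 with DESeq2, 1234 without library A and 732 without Tle6 KO replicate 4. With 2 Tle6 hets, a replicate left out leaves 1 het, assumed to vary like the KO replicates.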
